A study of Mus musculus with 6 samples.

Results

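The collagen chain genes are the mouse genes whose symbols name a collagen type and a chain, as in Col1a1 for the first chain of type I. All 44 rows with such a symbol, of 23183 genes listed, were taken, and each had a value in all 6 libraries. They were sorted by what their proteins build into 11 fibrillar, 8 basement membrane and 25 other collagens. RNA had been sequenced from lung tissue of mice on a C57BL/6 background, in 3 libraries from mice given lipopolysaccharide (LPS) into the trachea and 3 from mice given saline by the same route. LPS, from the outer membrane of Gram-negative bacteria, provokes acute inflammation of the lung. Every title names wild type mice. The genotype field, however, gives wild type for the saline libraries, LCN2-/- for LPS 1 and LPS 2 and LCN4-/- for LPS 3. Lcn2, the lipocalin-2 gene, read 13.60, 13.29 and 13.82 in LPS 1, 2 and 3 and 8.20, 11.28 and 10.11 in saline 1, 2 and 3, values that go against an Lcn2 knockout label. On the genotype field's terms, the effects of LPS and of genotype cannot be told apart. No label states that each library is a different animal, and p-values reflect library-to-library spread that could be technical.

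Collagens are made of chains that wind into triple helices, each chain a long run of repeats in which glycine recurs at regular intervals. Fibrillar types I, III and V form the tensile fibres of the airway and vessel walls and of the alveolar septa, and in lung they come mainly from fibroblasts. Type IV collagens form the sheet-like network of basement membranes, on which epithelium and endothelium rest. Its broadly made form is built from the Col4a1 and Col4a2 chains, and a second form, found in the alveolar basement membrane, from the Col4a3, Col4a4 and Col4a5 chains. The other types decorate fibres, make microfibrils or span cell membranes.

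Several type IV genes lie head to head. In GRCm38 (mm10), Col4a1 (chromosome 8, 11198423 to 11312826, minus strand) and Col4a2 (chromosome 8, 11312805 to 11449287, plus strand) overlap by 22 bases. Col4a4 (chromosome 1, 82448423 to 82586849, minus strand) and Col4a3 (chromosome 1, 82586921 to 82722059, plus strand) start 72 bases apart, and the 71 bases between them are given because both genes were lower in LPS by like amounts. The 250 bases before the annotated start are given for Col3a1, a fibrillar gene that was lower in LPS, and for Col6a3 and Col6a2, 2 type VI chain genes that were lower. Sequences are from RefSeq (GRCm38.p6), which had an entry for 35 of the 44 genes, and overlap no exon of GENCODE M21. Capitals mark matches on either strand to the TATA box TATAAA, the CCAAT box CCAAT, the GC box GGGCGG or the AP-1 site TGANTCA, none of which contains another.
Col4a4 (chr1:82586850-82586920, minus strand): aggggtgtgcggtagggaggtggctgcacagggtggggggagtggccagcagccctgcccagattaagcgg
Col3a1 (chr1:45311288-45311537, plus strand): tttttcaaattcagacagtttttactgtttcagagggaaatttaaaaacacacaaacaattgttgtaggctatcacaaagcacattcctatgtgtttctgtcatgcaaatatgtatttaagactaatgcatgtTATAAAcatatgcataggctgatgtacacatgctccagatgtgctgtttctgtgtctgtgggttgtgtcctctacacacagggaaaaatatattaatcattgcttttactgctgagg
Col6a3 (chr1:90843972-90844221, minus strand): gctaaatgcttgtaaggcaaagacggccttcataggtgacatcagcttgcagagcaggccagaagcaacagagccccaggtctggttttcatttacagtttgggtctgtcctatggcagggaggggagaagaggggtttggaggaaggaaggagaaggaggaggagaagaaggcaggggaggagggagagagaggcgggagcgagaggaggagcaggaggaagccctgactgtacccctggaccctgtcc
Col6a2 (chr10:76623631-76623880, minus strand): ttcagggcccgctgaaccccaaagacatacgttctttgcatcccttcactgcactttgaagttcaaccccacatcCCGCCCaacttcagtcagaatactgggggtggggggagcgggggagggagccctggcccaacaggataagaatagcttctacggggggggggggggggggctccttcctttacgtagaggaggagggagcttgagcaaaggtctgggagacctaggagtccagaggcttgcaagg
The stretch between Col4a4 and Col4a3, 69.0% G and C, and the Col6a3 stretch, 57.2% G and C, had 0 matches to the 4 motifs. Col3a1, at 35.2% G and C, had 1 TATAAA match, 117 bases before its start, and Col6a2, at 59.2% G and C, had 1 GC box match. Over the 250 bases before 38 annotated starts of 35 collagen genes, TATAAA occurred in 13.2%, CCAAT in 34.2%, GGGCGG in 57.9% and TGANTCA in 2.63%. Over 32851 stretches of the same length in the whole table the shares were 12.4%, 33.8%, 32.7% and 6.75%. These are matches of letters and were not tested as sites.

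The deposited values are log2(value + 1). Before the log they look scaled to gene length. Each difference is the mean of LPS less the mean of saline in log2 units. Depth is unknown from the tables. A gene was tested where at least 3 libraries reached a value of 1 before the log, and called at an adjusted p under 0.05 in limma with Benjamini-Hochberg adjustment over 13116 genes. Of the 44 collagen genes, 24 were tested and 20 were too low. Of the 24 tested, 17 were lower in LPS, 1 was higher and 6 did not pass. Over all genes tested, 50.1% were called, 24.3% as lower in LPS and 25.7% as higher. The fall was at least 2-fold for 11 of the 24 collagen genes and for 8.87% of all genes tested. Every LPS library lay below every saline library for 20 of the 24 and above for 0, against 29.9% below and 32.3% above over 10295 tested genes with 6 values. The median difference was -0.94 over the 24 tested collagen genes and 0.02 over all genes tested. Of the 24, 5 reached a value of 1 in fewer than 3 LPS libraries and 0 in fewer than 3 saline libraries, so the filter let some in through the saline libraries, where they were high. With a filter on the mean of the 6 libraries, at least 5 before the log, 15 collagen genes were tested, of which 11 were lower and 0 higher, against 18.8% lower and 32.1% higher over the 9304 genes tested.

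These directions are relative to the scale as deposited. With library sums made equal, the median of all genes tested moved to -0.68 and that of the collagen genes to -1.53, and 20 of the 24 collagen genes were called lower and 0 higher, against 63.6% lower and 6.08% higher over all genes. With quantile normalization the medians were 0.00 for all genes and -0.84 for the collagen genes, and 16 collagen genes were called lower and 0 higher, against 21.7% lower and 20.4% higher over all genes. In bulk tissue, fewer cells of a type and less RNA per cell cannot be told apart.

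**Figure D1:**
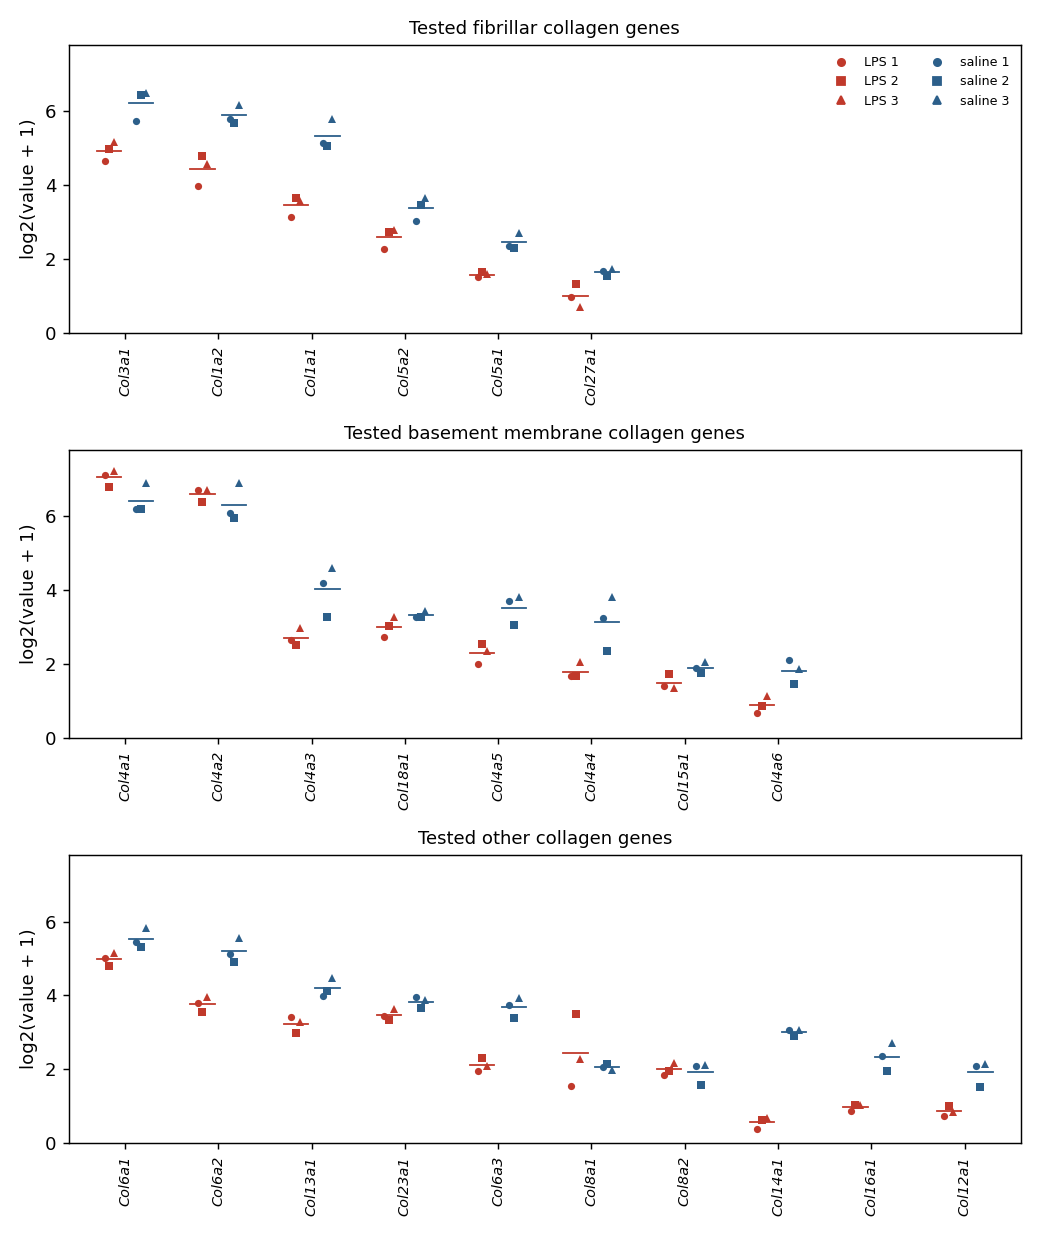
Value in each library, log2(value + 1), of the 24 tested collagen genes, in 3 panels by class and sorted by mean, with LPS in red left of saline in blue and a bar at each group mean. All 6 fibrillar genes sit lower in every LPS library than in any saline library, while Col4a1 and Col4a2 overlap between the groups.

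The fibrillar collagens that form the bulk of lung fibres were lower in LPS. All 6 fibrillar genes tested fell, by 0.65 to 1.87, with a median of -1.08, against 24.3% lower over all genes tested. They were below 0 with every scaling tried. Col1a1 (chromosome 11, 94936224 to 94953042), which encodes the major chain of type I collagen, read 3.13, 3.66 and 3.58 in LPS libraries and 5.14, 5.06 and 5.79 in saline libraries. The groups did not overlap, and the difference of -1.87 (SE 0.22, limma adjusted p = 0.00031) is 3.66-fold on the value + 1 scale. Its partner Col1a2 (chromosome 6, 4504814 to 4541544) read 3.97, 4.79 and 4.57 in LPS libraries and 5.79, 5.69 and 6.18 in saline libraries (difference -1.44, SE 0.23, limma adjusted p = 0.00112), again without overlap. Col3a1 (chromosome 1, 45311538 to 45349706), the type III chain of elastic, distensible tissue, read 4.64, 4.97 and 5.17 in LPS libraries and 5.73, 6.45 and 6.48 in saline libraries (difference -1.29, SE 0.23, limma adjusted p = 0.00202). LPS 1 was the lowest library for each of these 3 genes.

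Type V collagen starts new type I fibrils and sets their width. Its Col5a2 chain gene, which lies 24.6 kb from Col3a1 in the opposite orientation, read 2.26, 2.73 and 2.79 in LPS libraries and 3.02, 3.47 and 3.66 in saline libraries (difference -0.79, SE 0.21, limma adjusted p = 0.0117). Col5a1 ranged from 1.51 to 1.65 in LPS libraries and from 2.31 to 2.70 in saline libraries (difference -0.87, SE 0.15, limma adjusted p = 0.00181). Both genes separated the groups completely. Col27a1, a fibrillar type best known from cartilage, ranged from 0.70 to 1.32 in LPS libraries and from 1.53 to 1.72 in saline libraries, a difference of -0.65 (SE 0.18, limma adjusted p = 0.0148). That call ended with quantile normalization (-0.35), without LPS 3 (-0.50) and with saline 1 and 3 set against LPS 1 and 2 (-0.55).

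On the deposited scale the type IV genes of the alveolar network were called lower and Col4a1, of the broadly made network, was called higher, a call that turned in sign with equal sums. Col4a1 had the highest level, on the scale that looks length-adjusted, of all collagen genes in each library, 7.13, 6.80 and 7.23 in LPS libraries and 6.19, 6.19 and 6.90 in saline 1, 2 and 3, except in saline 2, where Col3a1 stood above it. Saline 3 lay above LPS 2, so the groups overlapped. The difference of 0.63 (SE 0.23, limma adjusted p = 0.0443) was the only increase called among the 24, and it was 0.04 with quantile normalization and -0.17 with equal sums. The call also ended without LPS 1 (limma adjusted p = 0.109), LPS 3 (0.131), saline 1 (0.126) or saline 2 (0.112), with no filter on low values (0.0666) and with a mean value of at least 5 (0.0509). Col4a2 read 6.72, 6.38 and 6.71 in LPS libraries and 6.10, 5.96 and 6.89 in saline libraries, a difference of 0.29 (SE 0.25, limma adjusted p = 0.349) that was -0.24 with quantile normalization and -0.51 with equal sums. Without saline 3, its difference was 0.58 (limma adjusted p = 0.0453).

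The 3 chains of the alveolar network fell. Col4a3, whose protein carries the target of the autoantibodies in Goodpasture disease, read 2.66, 2.51 and 2.98 in LPS libraries and 4.19, 3.29 and 4.59 in saline libraries (difference -1.31, SE 0.29, limma adjusted p = 0.00571). Col4a4 read 1.67, 1.67 and 2.05 in LPS libraries and 3.26, 2.37 and 3.81 in saline libraries (difference -1.35, SE 0.31, limma adjusted p = 0.00644). Col4a5, the chain most often mutated in Alport syndrome in humans, read 2.01, 2.55 and 2.37 in LPS libraries and 3.70, 3.07 and 3.81 in saline libraries (difference -1.22, SE 0.22, limma adjusted p = 0.00211). The groups did not overlap for any of the 3, and saline 2 was the lowest saline library for each, at -1.10 for Col4a3, -1.16 for Col4a4 and -0.69 for Col4a5 relative to the mean of saline 1 and 3. Col4a6, the chain that joins Col4a5 in basement membranes around smooth muscle, ranged from 0.68 to 1.14 in LPS libraries and from 1.47 to 2.11 in saline libraries (difference -0.92, SE 0.20, limma adjusted p = 0.00473). Col4a6 and Col4a5 lie head to head on chromosome X, with starts 1309 bases apart.

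Col18a1 and Col15a1, tested collagens that link basement membranes to the tissue beneath, did not pass the test. Col18a1, whose end fragment is endostatin, ranged from 2.74 to 3.27 in LPS libraries and from 3.27 to 3.45 in saline libraries, a difference of -0.32 (SE 0.16, limma adjusted p = 0.13). Col15a1 ranged from 1.36 to 1.74 in LPS libraries and from 1.77 to 2.05 in saline libraries (difference -0.40, SE 0.16, limma adjusted p = 0.0612). Its value passed without LPS 2 (-0.52, limma adjusted p = 0.0446) and without saline 2 (-0.47, limma adjusted p = 0.0492). With equal sums both genes were called lower (-1.04 for Col18a1 and -0.97 for Col15a1).

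**Figure D2:**
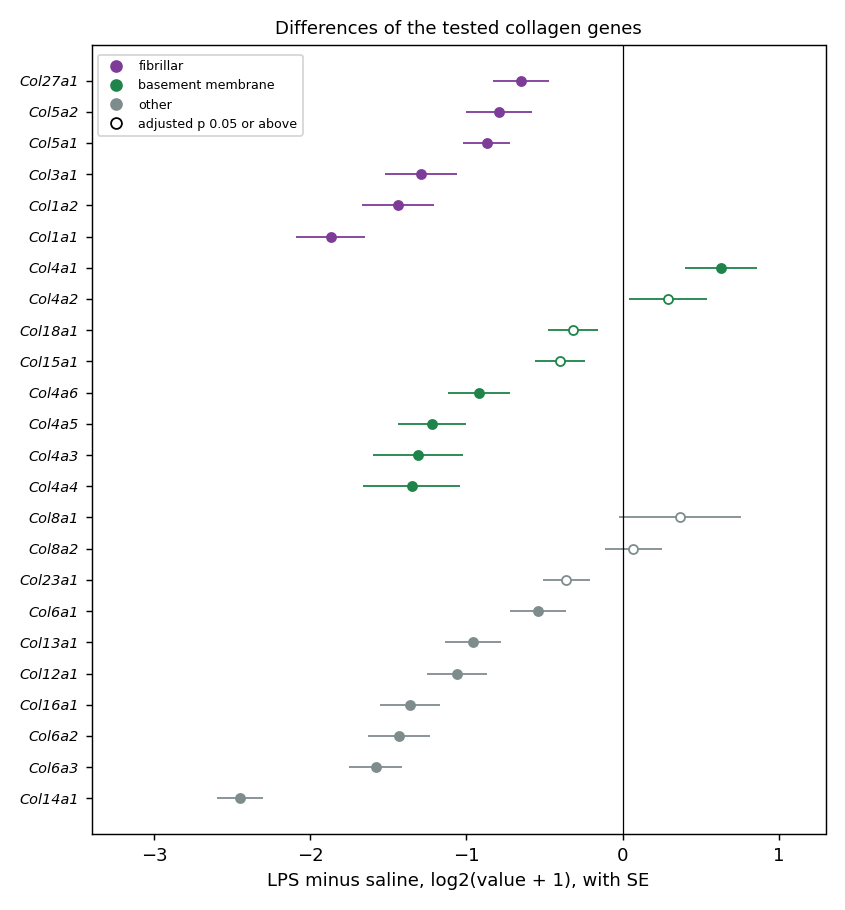
Difference LPS minus saline on the log2(value + 1) scale with its standard error for the 24 tested collagen genes, coloured by class, with open circles where the adjusted p was 0.05 or above. Col14a1 lies farthest to the left at -2.45, and Col4a1 at 0.63 is the only filled circle to the right of 0.

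Among the other types, 7 of 10 tested genes fell, 0 rose and 3 did not pass, against 24.3% lower and 25.7% higher over all genes tested. Of the 10, 3 reached a value of 1 before the log in fewer than 3 LPS libraries. The largest difference of all collagen genes tested was in Col14a1 (chromosome 15, 55307750 to 55520803), a collagen that coats type I fibrils and is used as a marker of one class of lung matrix fibroblasts in mouse. It read 0.39, 0.63 and 0.70 in LPS libraries and 3.07, 2.91 and 3.07 in saline libraries, a difference of -2.45 (SE 0.15, limma adjusted p = 2.92e-05). The LPS values were all under a value of 1 before the log, so it passed the filter through the saline libraries alone. Col13a1, a membrane-spanning collagen that marks another class of lung matrix fibroblasts in mouse, read 3.43, 2.98 and 3.28 in LPS libraries and 3.98, 4.12 and 4.47 in saline libraries (difference -0.96, SE 0.18, limma adjusted p = 0.00248). Neither gene's groups overlapped. Col12a1 (difference -1.06, SE 0.19, limma adjusted p = 0.00208) and Col16a1 (difference -1.36, SE 0.19, limma adjusted p = 0.000658), which also attach to fibrils, were lower as well. Col16a1 read 0.88, 1.05 and 1.04 in LPS libraries and 2.36, 1.97 and 2.71 in saline libraries. Col12a1 averaged 0.86 ± 0.15 in LPS and 1.93 ± 0.35 in saline (SD, n = 3 each), and neither gene overlapped between groups.

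Type VI collagen forms beaded microfibrils from 1 chain of each of Col6a1, Col6a2 and Col6a3, and all 3 genes fell. Col6a3 (chromosome 1, 90765923 to 90843971) read 1.96, 2.30 and 2.09 in LPS libraries and 3.74, 3.40 and 3.94 in saline libraries (difference -1.58, SE 0.17, limma adjusted p = 0.000223). Col6a2 (chromosome 10, 76595762 to 76623630) read 3.79, 3.54 and 3.95 in LPS libraries and 5.11, 4.90 and 5.56 in saline libraries (difference -1.43, SE 0.20, limma adjusted p = 0.000567). Col6a1 (chromosome 10, 76708792 to 76726168), 85.2 kb from Col6a2 on the same strand, read 5.02, 4.80 and 5.16 in LPS libraries and 5.45, 5.32 and 5.83 in saline libraries (difference -0.54, SE 0.18, limma adjusted p = 0.0322). None of the 3 overlapped between groups. The Col6a1 call ended without LPS 1 (-0.55), LPS 2 (-0.44), saline 1 (-0.58) or saline 3 (-0.39), at limma adjusted p-values of 0.0703, 0.123, 0.0509 and 0.117.

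The short-chain type VIII collagen, made by vessel wall and endothelial cells, had no called member. Col8a1 read 1.54, 3.49 and 2.29 in LPS libraries and 2.07, 2.16 and 1.99 in saline libraries, so the LPS libraries lay on both sides of the saline ones. Its difference of 0.37 (SE 0.39, limma adjusted p = 0.454) was -0.16 without LPS 2, -0.26 with equal sums and 0.82 without LPS 1 (limma adjusted p = 0.049). Col8a2 read 1.86, 1.97 and 2.17 in LPS libraries and 2.10, 1.58 and 2.12 in saline libraries (difference 0.07, SE 0.18, limma adjusted p = 0.779), and its sign turned with equal sums (-0.54). Col23a1, a membrane-spanning type, ranged from 3.34 to 3.63 in LPS libraries and from 3.65 to 3.96 in saline libraries, a difference of -0.36 (SE 0.15, limma adjusted p = 0.0726) that passed without saline 2 (-0.45, limma adjusted p = 0.0286). It also passed with saline 1 and 3 set against LPS 1 and 2 (-0.53, limma adjusted p = 0.0265) and with equal sums (-1.10, limma adjusted p = 0.000746).

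The saline libraries differed among themselves in a like way across the tested collagen genes. Saline 3 was the highest saline library for 20 of the 24 tested collagen genes, and saline 2 was the lowest for 19. Col3a1, Col5a2 and Col13a1 were among the exceptions, with saline 1 lowest. In LPS, LPS 1 was the lowest library for 14 of the 24. No such count over all genes is given, and the part of the scale between libraries in these orders was not tested.

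**Figure D3:**
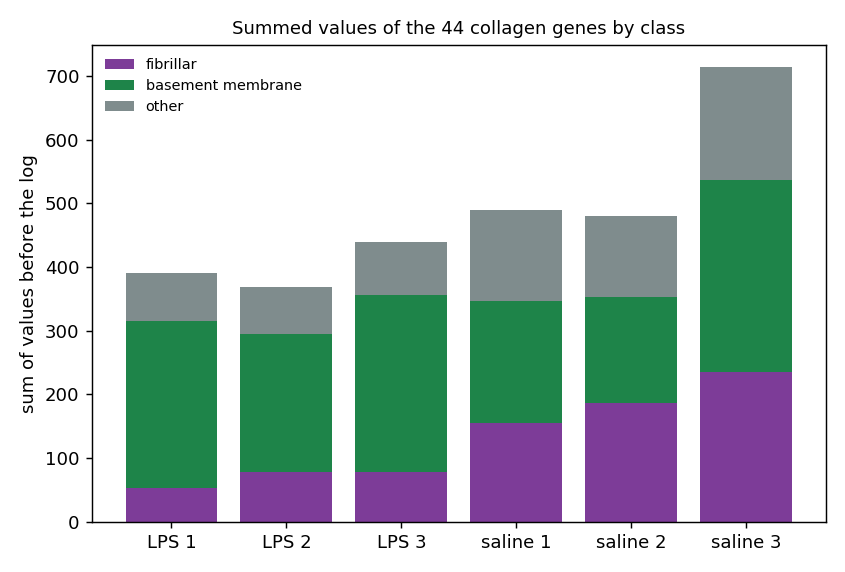
Sum of the values before the log over the 44 collagen genes in each library, stacked by class. The fibrillar part is 53.5 to 78.7 in the LPS libraries and 155.0 to 234.9 in the saline libraries, while the basement membrane parts overlap at 215.3 to 277.6 and 166.4 to 301.1.

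Summed before the log, on the scale that looks length-adjusted, the 44 genes came to 391.0, 369.0 and 439.7 in LPS libraries and 489.3, 479.8 and 713.6 in saline libraries. The groups did not overlap, and the make-up of the sum differed. Fibrillar genes held 17.6 ± 3.83% of it in LPS and 34.5 ± 3.86% in saline (SD, n = 3 each), and Col4a1 with Col4a2 held 57.3 ± 4.98% in LPS and 29.8 ± 2.90% in saline. Col4a3, Col4a4 and Col4a5 together held 3.03 ± 0.30% in LPS and 6.28 ± 1.82% in saline. The 3 type VI genes held 11.8 ± 0.45% in LPS and 16.9 ± 1.09% in saline, and the 20 genes under the filter at most 1.27% in any library. A factor applied to a whole library would leave these shares as they are. They are given as a description, with no test.

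Ratios between chains that join in a trimer, or that stand for alternative networks, were compared within libraries, as the difference of the deposited log2 values. This removes most of the effect of a factor applied to a whole library, but not that of quantile normalization. Of 10 pairs, 5 separated the groups on the deposited scale. For these the exact permutation p was 0.1, the smallest that 3 against 3 libraries allow, or 0.2 after Benjamini-Hochberg adjustment over the 10 pairs. No such count over other pairs of genes is given. Of 10295 single genes tested with 6 values, 29.9% had every LPS library below every saline library and 32.3% above. The log2 ratio of Col4a3 over Col4a1 was -4.48, -4.30 and -4.25 in LPS libraries and -2.0, -2.90 and -2.31 in saline libraries, a difference of -1.94 that was -1.86 with equal sums. The ratio of Col6a1 over Col6a2 was 1.24, 1.26 and 1.21 in LPS libraries and 0.35, 0.42 and 0.27 in saline libraries, a difference of 0.89 (0.87 with equal sums). That ratio varied by an SD of 0.03 within LPS and 0.07 within saline. Col6a1 over Col6a3 differed by 1.04, from a mean of 2.88 ± 0.33 in LPS and 1.84 ± 0.11 in saline (SD, n = 3 each). With quantile normalization the differences were smaller, at -1.35 for Col4a3 over Col4a1, 0.73 for Col6a1 over Col6a2 and 0.58 for Col6a1 over Col6a3.

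The type I pair and the broad type IV pair also did not overlap between the groups on the deposited scale. Col1a1 over Col1a2 was -0.84, -1.13 and -0.99 in LPS libraries and -0.65, -0.62 and -0.40 in saline libraries, a difference of -0.43. With quantile normalization that difference was -0.29 (exact permutation p = 0.2), so the separation of this pair depended on the scale. Col4a1 over Col4a2 was 0.41, 0.42 and 0.52 in LPS libraries and 0.09, 0.23 and 0.01 in saline libraries, a difference of 0.34. On the deposited scale Col4a3 over Col4a4 overlapped between the groups, at 0.92 ± 0.08 in LPS and 0.88 ± 0.08 in saline (SD, n = 3 each; difference 0.04, exact permutation p = 0.6). That difference was 0.18 with a pseudocount of 0.1 and -0.14 with quantile normalization, each at exact permutation p = 0.1, so the overlap depended on the scale. The deposited values also overlapped for Col4a4 over Col4a5 (difference -0.13, exact permutation p = 0.7), Col5a1 over Col5a2 (-0.08, exact permutation p = 0.7), Col8a1 over Col8a2 (0.30, exact permutation p = 0.8) and Col3a1 over Col1a1 (0.58, exact permutation p = 0.2).

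**Figure D4:**
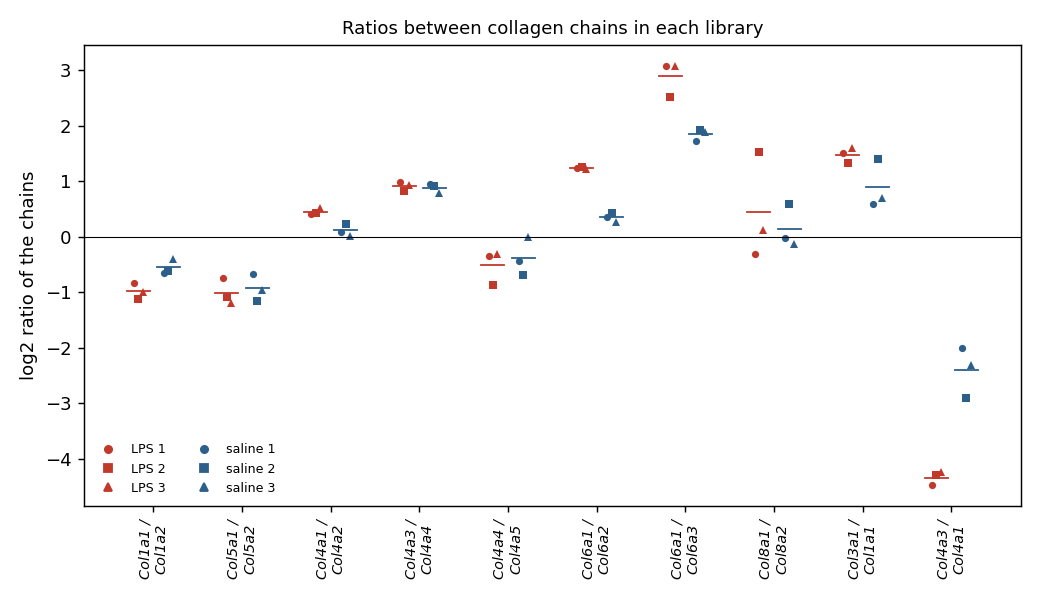
Log2 ratio between the values + 1 of 2 collagen chains in each library for 10 pairs, with LPS in red left of saline in blue and a bar at each group mean. Col4a3 over Col4a1 lies between -4.48 and -4.25 in LPS and between -2.90 and -2.0 in saline, and Col4a3 over Col4a4 overlaps between the groups.

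The 20 collagen genes under the filter had values from 0.00 to 1.45 in the 6 libraries. Counted over all 44 collagen genes, every LPS library lay below every saline library for 30 and above for 1, against 27.6% below and 19.6% above over 18699 genes with 6 values. The saline tables hold 1505 to 1936 values above 0 but under 0.01 each, against 11 to 24 in the LPS tables, with exact zeros more frequent in LPS. The part of that difference in the order of the lowest genes was not tested. A fit with no filter on low values covered 42 of the 44 and called 21 lower and 1 higher, against 20.2% lower and 18.5% higher over 17999 genes. The gene called higher there was Col22a1, and Col4a1 was not called (limma adjusted p = 0.0666). Col24a1 and Col9a1 were left out of it because they are listed at 0 in all LPS libraries.

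Of the low genes, Col17a1, the hemidesmosome collagen that ties epithelium to its basement membrane, read 0.12, 0.17 and 0.14 in LPS libraries and 1.0, 0.73 and 0.89 in saline libraries (difference -0.73, SE 0.08, limma adjusted p = 0.00173 with no filter). Col5a3, the third type V chain, read 0.14, 0.30 and 0.16 in LPS libraries and 0.70, 0.52 and 0.79 in saline libraries (difference -0.47, SE 0.08, limma adjusted p = 0.00671 with no filter). The one gene with the reverse order was Col22a1, found at junctions of muscle and tendon, at 0.75, 0.31 and 0.55 in LPS libraries and 0.11, 0.09 and 0.10 in saline libraries (difference 0.43, SE 0.11, limma adjusted p = 0.0182 with no filter). It shares exon bases with a transcript on the opposite strand, Gm16308. These 3 genes were chosen after their values were seen.

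Several genes of types best known from cartilage were close to 0 in LPS and low in saline, but Col11a2 and Col9a3 were not. Col11a2 read 0.39, 0.53 and 0.26 in LPS libraries and 0.38, 0.47 and 0.41 in saline libraries. Col9a3 read 0.25, 0.27 and 0.29 in LPS libraries and 0.33, 0.52 and 0.29 in saline libraries, and both genes overlapped between the groups. Col2a1 read 0.00, 0.03 and 0.01 in LPS libraries and 0.22, 0.45 and 0.02 in saline libraries, Col9a2 at most 0.06 in LPS libraries and 0.16 to 0.52 in saline libraries, and Col11a1 at most 0.01 in LPS libraries and 0.09 to 0.18 in saline libraries. Col10a1, the collagen of hypertrophic cartilage, stood at 1.45 in saline 2 alone, against 0.07 to 0.18 in the other libraries, and shares exon bases with Nt5dc1 on the opposite strand. Of 9 cartilage markers other than collagens, 8 were listed and 1 was tested, Chad (-1.76, limma adjusted p = 0.000761). Chad read 1.47, 2.27 and 2.24 in LPS libraries and 3.89, 4.05 and 3.31 in saline libraries. Sox9, which has no value in LPS 3 and was not tested, had the reverse order, at 2.81 and 1.55 in LPS 1 and 2 and 0.40, 0.61 and 0.40 in saline libraries. The summed value of the 7 genes other than Sox9 before the log, most of it from Chad, was 1.9 to 3.9 in LPS libraries and 14.7, 18.7 and 9.1 in saline 1, 2 and 3. The part of cartilage in these low values was not tested.

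**Figure D5:**
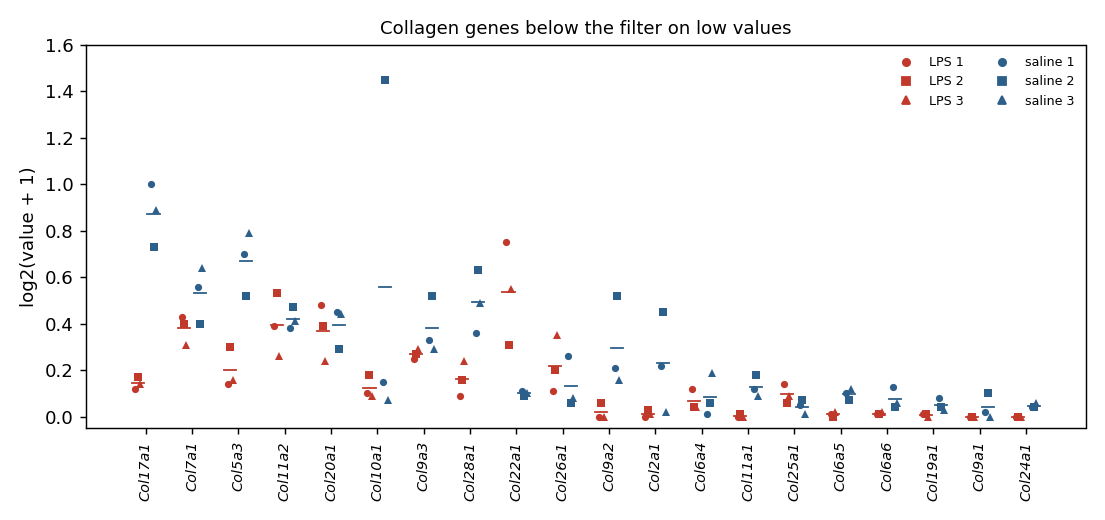
Value in each library, log2(value + 1), of the 20 collagen genes under the filter, sorted by mean, with LPS in red left of saline in blue and a bar at each group mean. Col10a1 is at 1.45 in saline 2, and Col22a1 is the only gene with all LPS libraries above all saline libraries.

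Genes that make and finish collagen were called in both directions. Of 18 tested genes for hydroxylation and folding, 6 were lower, 5 higher and 7 did not pass, with a median of -0.14, against 24.3% lower and 25.7% higher over all genes tested. The collagen galactosyltransferase gene Colgalt2 (-1.63), the lysyl hydroxylase gene Plod2 (-1.22) and the prolyl 3-hydroxylase genes P3h2 (-1.09) and P3h3 (-0.79) fell. Colgalt2 read 0.77, 0.81 and 0.72 in LPS libraries, all under a value of 1 before the log, so it passed the filter through the saline libraries alone. P3h2 read 0.72, 0.99 and 1.07 in LPS libraries, so only LPS 3 reached that value. Serpinh1, the chaperone of procollagen, had a difference of -0.24 that did not pass. Of 8 tested genes for procollagen export and propeptide removal, 3 were lower, 1 higher and 4 did not pass, with a median of -0.24. The enhancers of propeptide removal Pcolce2 (-2.43) and Pcolce (-1.16) and the protease gene Adamts2 (-0.51) fell, while the transcription factor gene Creb3l1 rose (0.69), a value that was -0.05 with equal sums. The Adamts2 call ended with quantile normalization (-0.33) and without LPS 1 (-0.46), and the Creb3l1 call without LPS 1 (0.54), without saline 2 (0.55) and with saline 1 and 3 set against LPS 1 and 2 (0.59).

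Among crosslinking genes, Lox was called higher. Lox, which encodes the lysyl oxidase that crosslinks fibrils, read 5.77, 5.47 and 5.61 in LPS libraries and 3.37, 3.34 and 3.49 in saline libraries, a rise of 2.22 (SE 0.14, limma adjusted p = 3.8e-05). The groups were far apart, and it was the only member of 6 tested to rise. Pxdn, whose product crosslinks type IV collagen, fell (-0.77, a call that ended without saline 3, at -0.66), and the 4 lysyl oxidase-like genes did not pass (median of the list -0.01).

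Of 14 tested genes for laminins and other basement membrane proteins, 7 were lower, 1 higher and 6 did not pass, with a median of -0.63. The shares over all genes tested were 24.3% lower and 25.7% higher. The laminin chain genes Lama3 (-1.82), Lama2 (-1.67) and Lama4 (-1.19) and the perlecan gene Hspg2 (-1.55) fell. Lama2 read 0.78, 0.95 and 1.01 in LPS libraries, of which only LPS 3 reached a value of 1 before the log. Of 9 tested collagen receptor genes, 4 were lower, 1 higher and 4 did not pass, with a median of -0.21. The uptake receptor gene Mrc2 (-2.15) and the integrin genes Itga1 (-2.06) and Itga2 (-1.35) fell, and the leukocyte inhibitory receptor gene Lair1 rose (1.46). Of 9 tested genes for collagen breakdown and its inhibitors, 4 were higher, 2 lower and 3 did not pass, with a median of 0.95. The collagenase genes Mmp8 (3.33), Mmp14 (1.24, which did not pass with equal sums) and Mmp13 (1.18) rose (Mmp8 is also in the list of neutrophil markers), as did the inhibitor gene Timp1 (4.78, SE 0.90), and the gelatinase gene Mmp2 fell (-1.68). Mmp13 read 0.36, 0.43 and 0.19 in saline libraries, so it passed the filter through the LPS libraries alone. Timp1 has no value in LPS 3. It read 10.34 and 9.91 in LPS 1 and 2 and 3.15, 6.92 and 5.98 in saline libraries. The counts of these lists moved with the scale between libraries, as did those over all genes tested, of which 63.6% were lower and 6.08% higher with equal sums. On that scale, 13 hydroxylation and folding genes were lower and 0 higher, 7 export and propeptide genes lower and 0 higher, 4 crosslinking genes lower and 1 higher, 12 basement membrane genes lower and 0 higher, 6 receptor genes lower and 1 higher, and 4 breakdown genes lower and 3 higher.

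Markers of the cells that make collagen moved as well, against 24.3% lower and 25.7% higher over all genes tested. Of 14 fibroblast markers other than collagens, 10 were lower and 0 higher (median -1.31), with Ogn (-3.56), Fbln1 (-2.26), Inmt (-2.25) and Npnt (-2.24) lowest, while Pdgfra (0.24), Dcn (-0.03) and Lum (-0.45) did not pass. Summed before the log over 12 markers with 6 values, they came to 692.7 to 818.3 in LPS libraries and 1910.4 to 3142.2 in saline libraries. Of 10 smooth muscle and pericyte markers, 7 were lower and 0 higher (median -1.01; sums 118.1 to 240.0 in LPS libraries and 270.2 to 434.9 in saline libraries), among them Rgs5 (-2.16), Notch3 (-1.89) and Myh11 (-1.61). Of 4 tested mesothelial markers 3 were lower, such as Lrrn4 (-0.96; sums over 2 genes 18.6 to 32.3 in LPS libraries and 22.5 to 41.7 in saline libraries). With equal sums, 14 fibroblast, 10 smooth muscle and pericyte and 4 mesothelial markers were lower and 0 higher, against 63.6% lower and 6.08% higher over all genes. No member of these lists was at 0 in all 6 libraries. Rgs5 read 0.36, 0.30 and 0.55 in LPS libraries, all under a value of 1 before the log, so it passed the filter through the saline libraries alone.

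Of 9 alveolar type 1 cell markers other than collagens, 5 were lower and 0 higher (median -0.63), against 24.3% lower and 25.7% higher over all genes tested. Rtkn2 (-2.02) and Cav1 (-1.44) were among the lower ones. Pdpn (0.60), Hopx (0.31), Aqp5 (0.08) and Ager (0.05) did not pass. The sums of the type 1 markers overlapped at 2386.4 to 3104.3 in LPS libraries and 2742.1 to 3236.2 in saline libraries. Of 12 endothelial markers, 4 were lower and 1 higher (median -0.52), against the same shares over all genes tested. Ptprb (-2.21) and Kdr (-2.17) were lower and Robo4 was higher (0.96, which did not pass with equal sums). The 7 that did not pass were Egfl7 (0.36), Esam (0.32), Cldn5 (0.20), Pecam1 (-0.24), Cdh5 (-0.50), Emcn (-0.54) and Vwf (-1.09). Endothelial sums were 886.2 to 1091.2 in LPS libraries and 1024.0 to 1114.9 in saline libraries. With equal sums, 8 of the 9 alveolar type 1 and 10 of the 12 endothelial markers were lower and 0 higher, against 63.6% lower and 6.08% higher over all genes. Of 12 neutrophil markers tested, 10 were higher and 0 lower (median 3.47), led by Il1r2 (4.81), with sums of 9822.0 to 25531.1 in LPS libraries and 710.7 to 2054.6 in saline libraries, the highest saline sum in saline 2. All 10 cardiac muscle markers were lower, with Nppa at -5.25. Sums over 7 of them were 54.4 to 176.3 in LPS libraries and 257.6 to 2205.7 in saline libraries. Nppa read 0.31, 0.99 and 2.84 in LPS libraries, of which only LPS 3 reached a value of 1 before the log. Of 7 adipocyte markers tested, 6 were lower and 0 higher, such as Cfd (-4.65), while Fabp4 (-0.40) did not pass. Cfd was uneven in LPS libraries, at 0.00, 0.00 and 2.95, against 5.77, 6.10 and 5.03 in saline libraries. The adipocyte sums overlapped at 74.9 to 117.9 in LPS libraries and 113.1 to 312.1 in saline libraries. The part of a changed mix of cells or of attached tissue in the collagen differences was not tested.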

How the data were processed

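RNA sequencing libraries from mouse lung, 3 labelled LPS and 3 labelled saline, were compared. Per the labels' protocols, Trizol was used for total RNA and a directional kit for the libraries, and the submitters' processing notes name TopHat and mm10. For the counting tool, its use of strand and the scaling, the sources used here give nothing. The deposited values are log2 values, read as log2(value + 1) from their exact zeros. Low values times exonic length gathered in steps: the fullest bin 2% wide held 17 to 29 genes per library, against 9 to 16 for the values alone. The LPS 3 table ends early, so 4484 of 23183 genes have no value in it, but no collagen gene is among them. Saline tables hold 1505 to 1936 values above 0 but under 0.01, against 11 to 24 in LPS tables, a difference that follows the groups.

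The groups were compared in limma (version 3.58.1, under R 4.3.3), with a variance trend. Exact two-sided permutation tests over libraries were used for chain ratios. Coordinates are from GENCODE M21 (GRCm38). Of the 44 collagen genes, 13 share exon bases with another annotated gene, Col4a1 and Col4a2 with each other, and reads there may be split or mixed. The members and gene lists were chosen with earlier results of these data known. Members called with a mean at or above the median of the tested members are given per library, as are the 2 largest increases and the 2 largest decreases among the others. Of each further list, up to 4 called members with the largest differences and a value in all 6 libraries are named, or the 2 highest where none passed; further names were chosen after their values were seen. No label says that same-numbered libraries are paired, so no block was used in the main fit. Same-numbered libraries also did not deviate together (correlations of deviations across 10295 genes -0.234, -0.078 and -0.252). Alternatives covered scaling, pseudocount, filters, the variance trend, the threshold, a replicate block and leaving libraries out. The values of 1 gene in the lists are not reported here.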

Additional observations from a re-analysis of the deposited data

How the results depend on the processing

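The count of collagen genes lower in LPS, 17, was 16 to 19 when 1 library at a time was left out and 11 with a mean value of at least 5, where fewer genes were tested. The 1 collagen gene higher in LPS, Col4a1, was lost (0 called) with quantile normalization, equal sums before the log, a mean value of at least 5, saline 1 and 3 against LPS 1 and 2, and a threshold of 0.01. With no filter on low values Col4a1 was also lost, and the 1 gene called higher there was Col22a1. Leaving out 1 library gave 0 to 2 higher. Over all genes, 3377 were higher and 3188 lower. Leaving out 1 library gave 2461 to 3660 higher and 2440 to 3436 lower. Equal sums gave 798 and 8343, a mean of at least 5 gave 1752 lower, and a threshold of 0.01 gave 2033 and 2004. With the replicate block, 17 collagen genes were lower and 1 higher, and over all genes 2793 were higher and 2624 lower. No library's deviations correlated best with its own number, which is a hint from the data and not from the design. Differences whose sign turned were Col4a2 (-0.24 with quantile normalization), and with equal sums Col4a1 (-0.17), Col4a2 (-0.51), Col8a1 (-0.26), Col8a2 (-0.54) and Creb3l1 (-0.05). With 1 library left out, Col8a1 was -0.16 (without LPS 2) to 0.82 (without LPS 1) and Col8a2 -0.11 (without saline 2) to 0.16 (without saline 3), with -0.02 without LPS 3. Col8a2 also turned without both saline 2 and LPS 3 (-0.20). Ratios near 0 also turned. Col5a1 over Col5a2 was 0.06 with quantile normalization, 0.01 with equal sums and -0.21 to 0.05 with 1 library left out. Col4a3 over Col4a4 was -0.14, -0.03 and -0.01 to 0.08 under the same changes. With 1 library left out, Col4a4 over Col4a5 was -0.29 to 0.05 and Col8a1 over Col8a2 -0.24 to 0.68. The other 6 ratios kept their sign in all alternatives run, and the 2 scalings of the ratios were chosen after seeing the data. The cause of these turns was not tested. Depth is unknown, so the precision of the low collagen genes cannot be given.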
